A study of Drosophila melanogaster with 4 samples.

Results

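The Hox complexes of Drosophila melanogaster are 2 gene clusters on chromosome arm 3R, and they were examined here as 700 non-overlapping windows of 1 kb. The Antennapedia complex took 370 windows, from 2480001 to 2850000, and the bithorax complex 330 windows, from 12480001 to 12810000, on FlyBase release 5. Windows were chosen by position alone, and they make up 700 of the 27905 whole windows of 3R. The measured value of a window is the percent of its bases that lie in regions enriched for the histone variant H2Av.

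H2Av was mapped by ChIP-seq, the sequencing of DNA recovered with an antibody from crosslinked chromatin, in nuclei of wild-type 3rd instar larvae of the strain Oregon-R (Oregon-R-modENCODE), with the antibody H2AV 9751. There are 2 ChIP libraries and 2 libraries of input, chromatin that was not precipitated, with all 4 of the same strain, stage and genotype. Enriched regions were deposited as a list for ChIP replicate 1, a list for ChIP replicate 2 and a combined list of the series, each setting ChIP against input. No label says that the replicates are of separately collected larvae, and their spread may be technical. The nuclei come from homogenized larvae with many cell types, so fewer cells with H2Av and less H2Av per cell cannot be told apart.

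Hox genes encode homeodomain transcription factors that give the segments of the body their identity, and they lie in an order that follows the head-to-tail axis. Polycomb group proteins keep each Hox gene silent in the segments where it is not used, and the complexes are classic Polycomb domains. H2Av is the H2A variant of this fly, found at the starts of many active genes, and fly genetics has also tied it to Polycomb silencing. In the RefSeq gene table of release 6, labial (lab) opens the Antennapedia complex and is followed by proboscipedia (pb), zerknullt (zen), bicoid (bcd), Deformed (Dfd), Sex combs reduced (Scr), fushi tarazu (ftz) and Antennapedia (Antp). Lab, pb, Dfd and Scr act in the head and first thoracic segment and Antp in the thorax, while zen, bcd and ftz are relatives with other roles in the early embryo. The bithorax complex holds Ultrabithorax (Ubx), abdominal-A (abd-A) and Abdominal-B (Abd-B), which act from the posterior thorax to the end of the abdomen. That table lists 19 protein-coding genes from lab to Antp, among them a run of Ccp84A cuticle protein genes between lab and pb. It lists 6 from Ubx to Abd-B, with microRNA and long non-coding RNA genes between abd-A and Abd-B. Release 6 positions were not used with release 5 regions, so no region is assigned to a gene, and the region lists hold no gene names against which the labels of the complexes could be checked.

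The lists differ in length and depth is unknown. ChIP replicate 1 held 9667 regions, of which 1950 lay on 3R, ChIP replicate 2 held 4664 and 997, and the combined list 7944 and 1591. Each region carries a score of the authors' own, on a scale that no header or label defines, and scores are compared within a list only. With 2 replicates the smallest p of a 2-sided exact sign-flip permutation test is 0.5, so differences are given with their spread and no test.

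Both complexes held far fewer H2Av-enriched bases than the rest of 3R. In the Antennapedia complex, 11.9% of bases lay in regions of replicate 1 and 2.46% in regions of replicate 2, a mean of 7.19% ± 6.69 (SD, n = 2). In the bithorax complex the values were 7.76% in replicate 1 and 0.855% in replicate 2, a mean of 4.31% ± 4.88 (SD, n = 2). The rest of 3R had 25.6% in replicate 1 and 19.4% in replicate 2 (22.5% ± 4.40, SD, n = 2). Both replicates placed both complexes below the rest of the arm.

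The Antennapedia complex lay below the rest of 3R by 13.7 percentage points in replicate 1 and by 16.9 in replicate 2, a mean difference of -15.3 points ± 2.30 (SD, n = 2). For the bithorax complex the gap was 17.9 and 18.5 points, a mean difference of -18.2 points ± 0.485 (SD, n = 2). Each mean difference was larger than the spread between the replicates. As a ratio, the rest of 3R had 2.15 times the coverage of the Antennapedia complex in replicate 1 and 7.89 times in replicate 2. Against the bithorax complex the ratio was 3.30 in replicate 1 and 22.7 in replicate 2. The size of the gap was therefore alike in the replicates in percentage points and unlike as a ratio. In the combined list the Antennapedia complex had 6.95% and the bithorax complex 3.81%, where the rest of the arm had 25.5%. The Antennapedia complex was covered more than the bithorax complex in both replicates, by 4.17 points in replicate 1 and 1.60 in replicate 2 (mean 2.88 ± 1.81, SD, n = 2).

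Counted by window, 359 of the 370 Antennapedia windows (97.0%) and 326 of the 330 bithorax windows (98.8%) were empty in replicate 2. Over all windows of 3R, 78.0% were. A window was called when at least 50% of its bases lay in regions. Replicate 1 called 44 of the 370 Antennapedia windows (11.9%) and 24 of the 330 bithorax windows (7.27%), where the background over all windows of 3R is 25.5%. Replicate 2 called 9 windows in the Antennapedia complex (2.43%) and 3 in the bithorax complex (0.909%), against a background of 19.1%. The combined list called 24 and 13 windows, 6.49% and 3.94%, against 25.2%. Windows called in both replicates were the same 9 and 3, against a background of 16.5%. At any overlap in both lists they were 11 and 4, against 20.0%, and those covered whole in both were 7 and 1, against 12.4%. The shares of Hox windows thus lay below the background in all 3 lists.

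No Hox window was called in replicate 2 without being called in replicate 1, but only 12 Hox windows were called in replicate 2. Over 3R, 713 of the 5331 windows called in replicate 2 had no replicate 1 call (2.56% of all windows). With so few Hox windows, 0 of 12 does not set the complexes apart. Windows called in replicate 1 alone numbered 35 in the Antennapedia complex (9.46%) and 21 in the bithorax complex (6.36%), where 8.97% of all 3R windows were. Windows with no base in any of the 3 lists numbered 304 in the Antennapedia complex (82.2%) and 293 in the bithorax complex (88.8%), where the background is 65.5%.

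**Figure D1:**
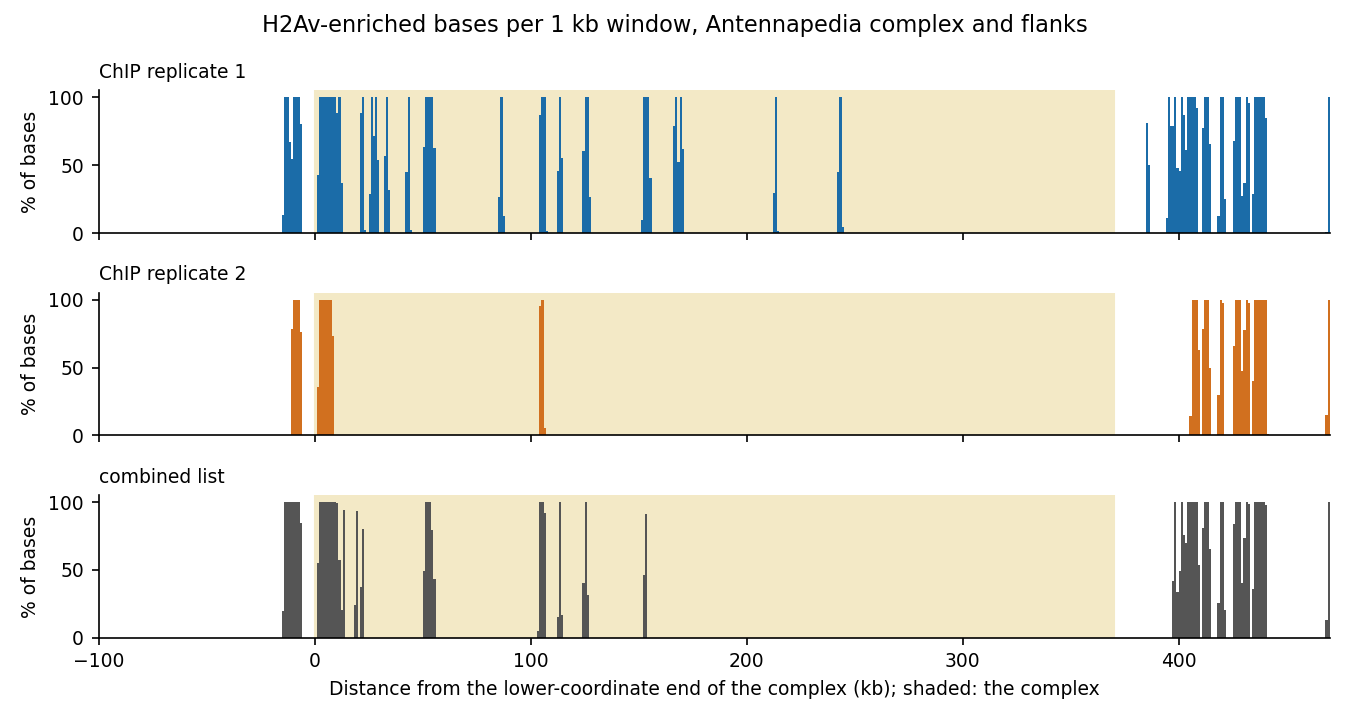
Percent of bases in H2Av-enriched regions (y axis) in each 1 kb window of the Antennapedia complex and 100 kb on either side, by distance in kb from its lower-coordinate end (x axis), in ChIP replicate 1, ChIP replicate 2 and the combined list. Replicate 2 fills windows at the lower-coordinate end and at about 104 kb, replicate 1 has 17 regions that begin within the first 243 kb, and the last 126 kb of the shaded complex are empty in every panel.

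**Figure D2:**
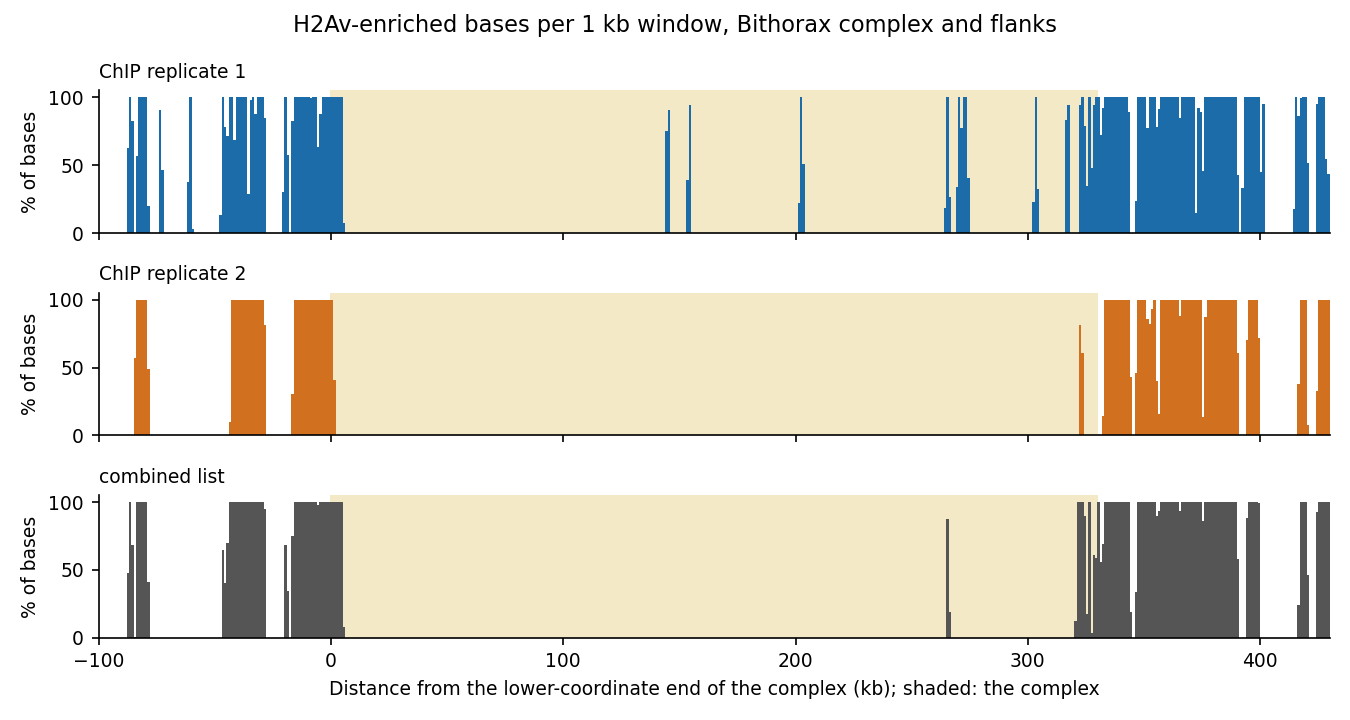
Percent of bases in H2Av-enriched regions (y axis) in each 1 kb window of the bithorax complex and 100 kb on either side, by distance in kb from its lower-coordinate end (x axis), in the same 3 lists. Dense regions outside the shaded complex reach inside its lower-coordinate end in all 3 lists. They reach inside its higher-coordinate end in replicate 1 and, by 11 bp, in the combined list. The 139 kb from 12485081 to 12624248, behind the region at the lower-coordinate end, are empty in all 3 lists.

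Set against 3R stretches of equal length tiled from its first base, the complexes were among the least covered in replicate 1. In replicate 2 they lay below every other tiled stretch. The arm was tiled into stretches of 370 kb and of 330 kb, and stretches touching either complex were left out. Of 71 stretches of 370 kb, 7 had less replicate 1 coverage than the Antennapedia complex, 0 had less replicate 2 coverage, and 4 had a lower mean of both (5.63%). The mean coverage of these stretches ran from 5.51% to 49.7% with a median of 21.2%. Of 80 stretches of 330 kb, 5 had less replicate 1 coverage than the bithorax complex, 0 had less replicate 2 coverage, and 1 had a lower mean (1.25%). Their mean coverage ran from 2.45% to 55.05% with a median of 18.9%. In the combined list, 2 of the 71 and 1 of the 80 stretches were lower. Among overlapping stretches starting every 10 kb, 142 of 2612 and 60 of 2624 had a lower mean. The replicate 2 rank depends on the tiling. The longest stretch of 3R without a replicate 2 region was 350.25 kb and lay outside the complexes, so 330 kb taken from it hold no replicate 2 base. These ranks describe one arm and carry no p-value.

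No tiled stretch had less replicate 2 coverage than a complex, so any with a lower mean necessarily had more there and less in replicate 1. The stretch with a lower mean than the bithorax complex, at 22110001 to 22440000, had 2.45% in replicate 1 and also 2.45% in replicate 2. The stretches with a lower mean than the Antennapedia complex lay at 24050001 to 24420000, 15910001 to 16280000, 22200001 to 22570000 and 26640001 to 27010000. Replicate 1 covered 6.69% to 8.53% of these and replicate 2 covered 4.34% to 5.81%, where the Antennapedia complex had 11.9% and 2.46%.

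The ratio of replicate 1 to replicate 2 coverage was 4.85 in the Antennapedia complex and 9.07 in the bithorax complex, against 1.32 over the rest of 3R. None of the 71 stretches of 370 kb reached the ratio of the Antennapedia complex, and their ratios ran from 0.766 to 3.93 with a median of 1.29. None of the 80 stretches of 330 kb reached that of the bithorax complex, with ratios from 0.876 to 4.63 and a median of 1.31. Among the less covered stretches, those under the median coverage, the median ratio was 1.54 over 35 stretches of 370 kb and 1.44 over 40 stretches of 330 kb. The stretches with the next highest ratios lay at 3330001 to 3700000 (3.93) and, in the tiling by 330 kb, at 660001 to 990000 (4.63) and 3300001 to 3630000 (4.59). This comparison was made after seeing the values. The share of stretches with a lower ratio was 97.2% for the Antennapedia complex and 98.8% for the bithorax complex when each list kept its higher-scoring 50%. After the longer list had been cut to its best-scoring regions, as many as in the shorter, the ratios fell to 2.33 and 3.36, and none of the 71 and 80 tiled stretches exceeded them. Among overlapping stretches of 3R starting every 10 kb, 11 of 2612 and 2 of 2624 had higher ratios than the complexes in the full lists. Over the 5 major arms, 7 of 316 and 5 of 354 stretches had higher ratios. The ratios rest on few replicate 2 bases, 9.10 kb in the Antennapedia complex and 2.82 kb in the bithorax complex. Without the outer 10 kb at each end the ratio was 17.8 in the Antennapedia complex. The bithorax complex then had no ratio, since replicate 2 held 0 bases there. The part of depth and calling threshold in this ratio was not tested.

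Base by base, what replicate 2 marked in the complexes, only 2 regions in each, was also marked by replicate 1. Of the replicate 2 bases in the Antennapedia complex, 99.1% lay in replicate 1 regions, and in the bithorax complex 100% did, against 86.1% over the rest of 3R. By region the rest of 3R was close to this, with 94.8% of its replicate 2 regions overlapping replicate 1. In the other direction, replicate 2 covered 20.4% of the replicate 1 bases in the Antennapedia complex and 11.02% in the bithorax complex, against 65.2%. The Jaccard index, the shared bases over the bases of either list, was 0.204 and 0.110 in the complexes and 0.590 in the rest of 3R. All 71 and all 80 stretches of equal length had a higher index, the lowest being 0.219 and 0.189. The index, like the share of replicate 1 bases in replicate 2, cannot exceed replicate 2 coverage over replicate 1 coverage. In the complexes both values lay at or near that limit, so they restate the coverage ratio and add no separate measure of agreement.

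**Figure D3:**
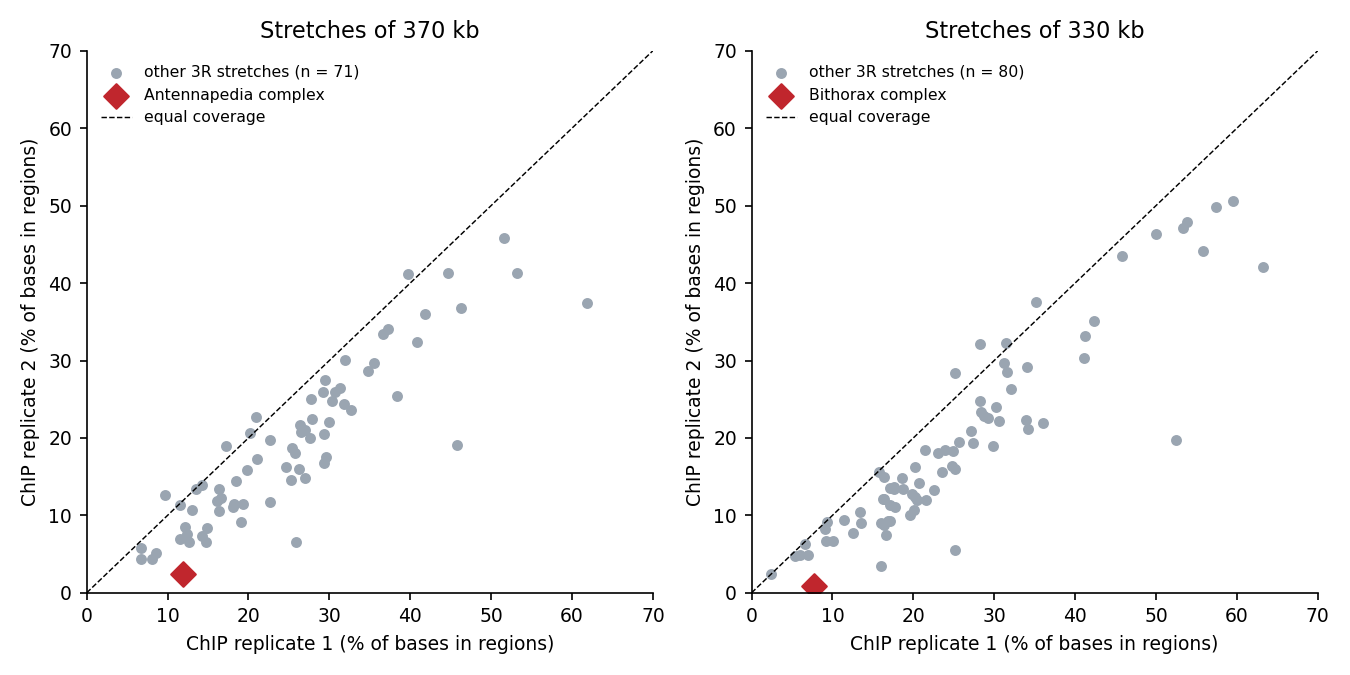
Percent of bases in H2Av-enriched regions in ChIP replicate 1 (x axis) and ChIP replicate 2 (y axis) for each complex (red diamond) and other 3R stretches. Grey points are the other tiled 3R stretches of the same length, 71 of 370 kb on the left and 80 of 330 kb on the right. A dashed line marks equal coverage. Both diamonds lie below every grey point on the replicate 2 axis, at 2.46% and 0.855%, while 7 and 5 grey points lie to their left on the replicate 1 axis.

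Each complex held 2 regions shared by both replicates, and 3 of these 4 lay within 10 kb of an end. In the Antennapedia complex the largest stood at 2481571 to 2490256 in replicate 1 (8686 bp, score 1.29) and at 2481643 to 2488730 in replicate 2 (7088 bp, score 1.30). The combined list had it at 2481450 to 2490356, and it began 1.45 kb inside the lower-coordinate end of the span. Its score exceeded that of 92.6% of the 3R regions of replicate 1 and 80.4% of those of replicate 2, so within each list it ranked high. The second shared region, 104 kb into the complex, stood at 2584128 to 2587012 in replicate 1 (score 1.02) and at 2584045 to 2586053 in replicate 2 (2009 bp, score 0.524). In replicate 2 that score exceeded 14.1% of the 3R regions, and in replicate 1 it exceeded 76.6%. The lists differ in length, so these ranks are not compared between them. The combined list held it at 2583950 to 2586916 (2967 bp, score 0.648).

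In the bithorax complex neither of the shared regions lay in the interior. The wider one came in from outside: replicate 1 placed it at 12475121 to 12485077 (9957 bp, score 1.30) and replicate 2 at 12463697 to 12481407 (17711 bp, score 1.42). Replicate 1 carried it 5077 bp into the complex and replicate 2 carried it 1407 bp. The combined list ended it at 12485080. The second lay 322 kb into the complex, near the higher-coordinate end, at 12802056 to 12804788 in replicate 1 (score 0.844) and at 12802189 to 12803604 in replicate 2 (1416 bp, score 0.380). That replicate 2 score exceeded only 1.003% of the 3R regions of its list, which puts it among the lowest called. The combined list had a region of 4019 bp there, at 12800878 to 12804896 (score 0.450). Between the 2 shared regions, replicate 2 left 320.8 kb without a region, which ranked 3 by length among such stretches of 3R in that list.

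With the outer 10 kb at each end set aside, the bithorax complex had 0 bases in replicate 2 regions, 4.52% in replicate 1 regions and 0.343% in the combined list. The Antennapedia complex without its outer 10 kb had 10.2% in replicate 1 and 0.574% in replicate 2, and the combined list covered 4.90%. What replicate 2 marked inside the Antennapedia complex away from its ends was thus a single region. This trimming was chosen after seeing the data.

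Only replicate 1 of the 2 replicates showed a scatter of short regions inside the complexes. A scatter called in replicate 1 alone was not particular to them. Windows called in replicate 1 alone made up 9.46% of the Antennapedia complex and 6.36% of the bithorax complex, against 8.97% of all 3R windows. Counting all of its regions, replicate 1 was sparser in the complexes than in the rest of the arm. Replicate 1 held 17 regions in the Antennapedia complex and 12 in the bithorax complex, or 45.9 and 36.4 per Mb, against 70.6 per Mb in the rest of 3R. Replicate 2 held 2 and 2 regions (5.41 and 6.06 per Mb, against 36.5). The combined list held 17 regions in the complexes, and 13 of these were under 3 kb (76.5%, against 51.0% in the rest of the arm). The median width of the 29 Hox regions of replicate 1 was 1882 bp against 2533 bp in the rest of the arm, and 24 of the 29 (82.8%) were under 3 kb against 57.9%. Their median score was 0.712, with 0.711 for other 3R regions in the same list. Hox regions were therefore shorter than the other regions of the arm at about the same median score. Among regions under 3 kb the median score was 0.663 in the complexes and 0.573 in the rest of the arm.

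Replicate 2 had a region overlapping 4 of the 29 Hox regions of replicate 1 by at least 1 bp (13.8%), against 56.4% of the other 3R regions of that list. A like width gave a similar picture. Of the 24 Hox regions under 3 kb, 2 overlapped replicate 2 (8.33%), against 370 of 1113 in the rest of the arm (33.2%). The combined list overlapped 13 of the 29 (44.8%), against 81.6% of the other 3R regions of replicate 1. These are counts of regions in 1 list, and regions are not replicates of a condition.

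**Figure D4:**
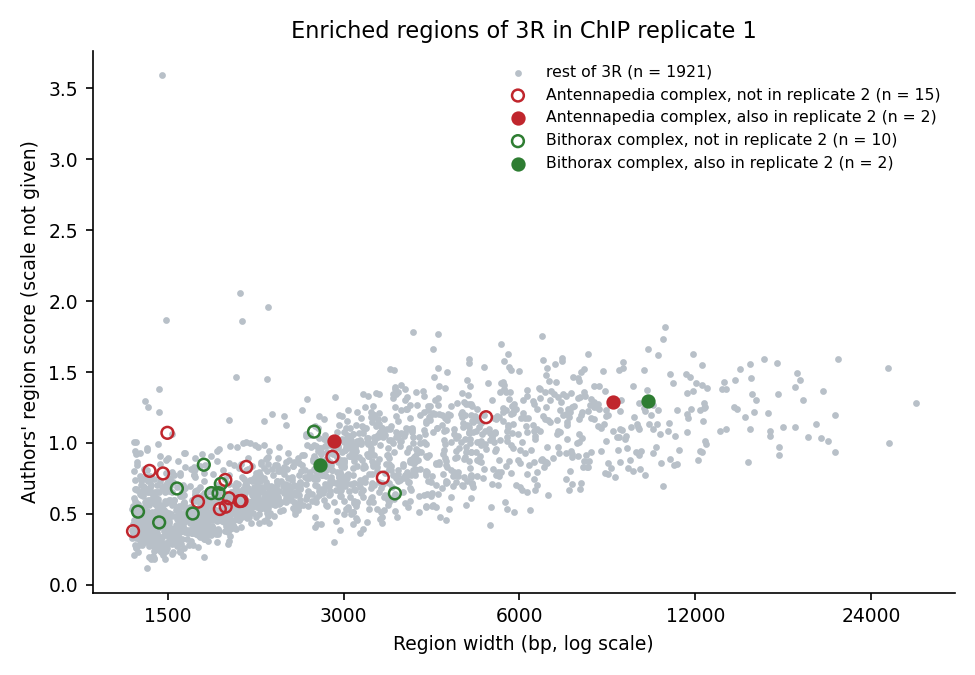
Width in bp on a log scale (x axis) and the authors' score (y axis) of every enriched region of 3R in ChIP replicate 1, with regions of the rest of the arm in grey, of the Antennapedia complex in red and of the bithorax complex in green, filled where replicate 2 has an overlapping region. Of the 29 Hox regions, 24 are under 3 kb wide and 4 are filled.

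Within the Antennapedia complex, H2Av regions lay on the lower-coordinate side. That side, 185 kb long, had 22.3% of its bases in replicate 1 regions, 4.92% in replicate 2 regions and 13.9% in the combined list. The other 185 kb had 1.52% in replicate 1 and 0 bases in replicate 2 and in the combined list. The 10 kb at the lower-coordinate end were the most covered, at 84.3% in replicate 1, 70.9% in replicate 2 and 85.5% of bases in combined regions. The 2 regions of the other side stood in replicate 1 alone, at 2692707 to 2694014 (1308 bp, score 0.378) and at 2722548 to 2724045 (1498 bp, score 1.07). The first score exceeded 8.31% of the 3R regions of replicate 1 and the second 80.3%. The sides of the bithorax complex differed less, with 4.89% and 10.6% in replicate 1 and 0.853% and 0.858% in replicate 2.

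Apart from the shared region at its start, the widest region of the Antennapedia complex was called in replicate 1 and not in replicate 2. It stood at 2530370 to 2535629 (5260 bp, score 1.18), wider than 82.3% and higher in score than 86.8% of the 3R regions of replicate 1. The combined list split it into regions of 3645 bp and 1069 bp. In the bithorax complex the highest score of a region wholly inside it was 1.08, at 12751738 to 12754407 (2670 bp) in replicate 1, and neither replicate 2 nor the combined list held a region there. These 2 regions and the pair of the preceding paragraph were picked after their values were seen. Of the 11 combined-list regions of the Antennapedia complex, 2 overlapped both replicates and 2 overlapped neither, at 2492798 to 2493938 and 2498762 to 2499934. All 6 combined-list regions of the bithorax complex overlapped replicate 1 and 2 overlapped both.

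The other regions of replicate 1 were called there and not in replicate 2. In the Antennapedia complex these were 15 regions of 1308 to 5260 bp (median 1885 bp) with scores from 0.378 to 1.18, and the combined list overlapped 6 of them. In the bithorax complex there were 10, of 1334 to 3672 bp (median 1755 bp) with scores from 0.439 to 1.08, of which the combined list overlapped 3. The last of these crossed the higher-coordinate end, at 12808055 to 12811726, and the other 9 lay wholly inside. In the first 260 kb of the bithorax complex behind its lower-coordinate end, replicate 1 called 3 of them, at 12624249 to 12625903, 12633607 to 12634940 and 12681782 to 12683510, regions chosen here after their values were seen, and the combined list held none of these 3. By bins of 10 kb, 22 of the 37 bins of the Antennapedia complex (59.5%) and 24 of the 33 of the bithorax complex (72.7%) held no base of any list, against 43.05% of the 2790 bins of 3R. Replicate 2 alone left 35 and 31 of these bins empty (94.6% and 93.9%, against 63.3%).

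Long stretches without any region filled most of both complexes. The longest in the Antennapedia complex ran from 2724046 to 2865189, or 141.1 kb, and held no region in any of the 3 lists. It took up the last 126 kb of the complex and went on 15.2 kb past its end. It ranked 14 by length among the empty stretches of 3R. The next 4 ran from 2650618 to 2692706 (42.1 kb), 2535630 to 2565732 (30.1 kb), 2694015 to 2722547 (28.5 kb) and 2607269 to 2631903 (24.6 kb).

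In the bithorax complex the longest empty stretch ran from 12485081 to 12624248 (139.2 kb) and ranked 17 on 3R by length. It began where the region reaching in from the lower-coordinate flank ended. The next were 12683511 to 12744817 (61.3 kb), 12634941 to 12681781 (46.8 kb), 12754408 to 12782771 (28.4 kb) and 12784327 to 12796164 (11.8 kb). Stretches of at least 20 kb empty in all 3 lists made up 67.9% of the Antennapedia complex and 83.5% of the bithorax complex, against 48.7% of the rest of 3R. Stretches of at least 50 kb made up 34.0% and 60.75%, against 30.9%, so at that length the Antennapedia complex was close to the rest of the arm. Stretches of at least 100 kb made up 34.0% and 42.2%, against 18.3%. The Antennapedia share at both of these lengths is that of a single stretch, the one over the end of the complex. In the combined list alone, the bithorax complex was empty for 260.045 kb in a row and the Antennapedia complex, with 27.6 kb of its flank, for 243.7 kb. By length these ranked 3 and 5 among the empty stretches of 3R in that list.

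Averaged over 100 kb on either side, coverage was far lower inside than outside at 3 of the 4 ends of the complexes. At the higher-coordinate end of the bithorax complex, the 100 kb outside had 74.1% of bases in replicate 1 regions and 66.9% in replicate 2 regions, and the 100 kb inside had 15.8% and 1.42%. The drop was 61.9 points ± 5.05 (SD, n = 2). At its lower-coordinate end, the 100 kb outside had 45.5% and 37.3% and the 100 kb inside 5.08% and 1.41%, a drop of 38.2 points ± 3.23 (SD, n = 2). The sequence on either side of the bithorax complex was thus more covered than the average of 3R in both replicates, while the complex between was far below it.

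The Antennapedia complex had an end with a lower average inside and an end that went the other way. At its higher-coordinate end the 100 kb outside had 32.6% in replicate 1 and 23.8% in replicate 2. The 100 kb inside had 0 bases in all 3 lists, a drop of 28.2 points ± 6.21 (SD, n = 2). This drop is between averages: the 15.2 kb just outside that end were also empty in all 3 lists, so coverage did not change at the end itself. Its lower-coordinate flank was itself poor in regions, with 7.16% in replicate 1 and 4.55% in replicate 2, against 26.1% and 7.09% for the 100 kb inside. The outside minus the inside was -10.8 points ± 11.6 (SD, n = 2) there, a difference within the spread between the replicates. Both replicates nonetheless had the inside higher at this end and lower at the other 3.

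**Figure D5:**
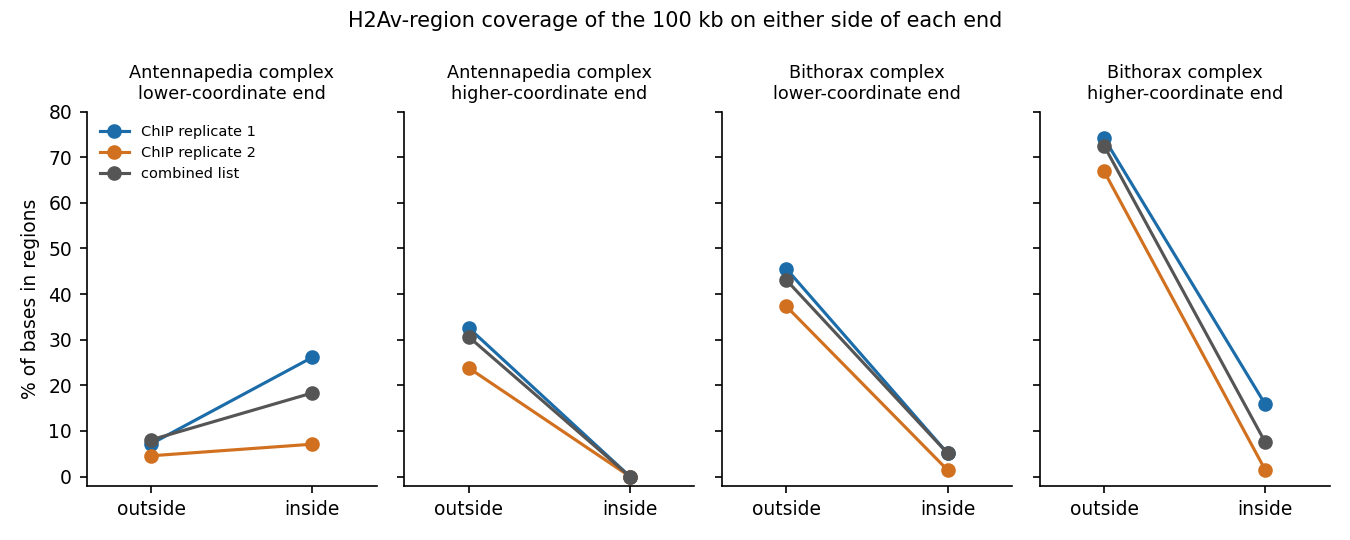
Percent of bases in H2Av-enriched regions (y axis) in the 100 kb outside and the 100 kb inside each end of the complexes, with a line for each of the 3 lists. Coverage falls going inside at both ends of the bithorax complex and at the higher-coordinate end of the Antennapedia complex, where it reaches 0, and rises at the lower-coordinate end of the Antennapedia complex.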

How the data were processed

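Coordinates follow FlyBase release 5, per the file headers. Bowtie 0.12.7 was the aligner, per the submitters' processing notes. How regions were called, filtered and combined over replicates is not given in the sources used here. For each region, the authors deposited a score, with no stated scale. The depth of sequencing is unknown and gives no error, and coverage by regions can move with depth and threshold.

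From the region lists, the percent of bases in regions was computed with Python 3.11.15, numpy 2.4.6 and pandas 2.3.3 for each 1 kb window of 3R, for both complexes, for all stretches of equal length tiled from the first base of 3R, and for 100 kb on either side of each end. The last 53 bases of 3R, short of a whole window, were left out of window counts. Regions overlapped when they shared at least 1 bp. The functions for coverage, windows and empty stretches were tested on simulated data. Regions named in the text are those of the combined list overlapping both replicates (at most the 5 widest and 5 highest-scoring per complex), all regions of replicate 2 and the 5 longest empty stretches of each complex, with exceptions named there. Alternatives were the higher-scoring 50% of each list, lists of equal length, each list alone, other window calls and other backgrounds. The complexes, lists and measures were chosen with earlier results of these data known. Sequence of the windows is not printed, since no release 5 genome was used here.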

Additional observations from a re-analysis of the deposited data

How the results depend on the processing

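Coverage of both complexes stayed below the background in every alternative run. The difference from the rest of 3R ranged from -16.9 to -13.7 points for the Antennapedia complex and from -18.5 to -17.9 for the bithorax complex with either replicate left out. With the higher-scoring 50% of each list it was -10.7 and -12.7, where fewer regions were left, and -18.5 and -21.7 in the combined list. For the bithorax complex it was -15.5 with lists cut by score to equal length, -18.8 against the 5 major arms and -20.2 without the outer 10 kb. Stretches of lower coverage were 0% to 9.86% of all for the Antennapedia complex and 0% to 6.25% for the bithorax complex with either replicate left out. Over the 5 major arms they were 6.96% and 5.08%. Windows called in both replicates, 9 and 3, were 9 to 44 and 3 to 24 with either list alone. Without the outer 10 kb they were 2 and 0. In the bithorax complex the count was 1 in the higher-scoring 50%, with lists of equal length, and with windows called when covered whole. Except where stated, the cause was not tested. The other 45 of 60 values moved by less than the spread between replicates or by no more than 1.5 times. This count is not a measure of stability, because some values could not have moved by more. A mean difference with 1 replicate left out always moves by less than the spread. The shares of stretches with lower coverage, 5.63% and 1.25%, could not fall by their spreads of 6.97 and 4.42. A share of 100% for the ratio had to fall far to pass 1.5 times. No paired analysis was possible because ChIP and input of a replicate enter together, as 1 list of regions. With 2 replicate lists and unknown depth, a window without a region is not shown to lack H2Av.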
